A study of Rattus norvegicus with 3 samples.

Results

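Natriuretic peptides and endothelins are short secreted peptides with opposed actions on blood vessels, and the genes of both systems are described here in rat induced pluripotent stem (iPS) cells and in cultured adult rat cells. They were 10 genes with 12 of the 41012 different probes on the array, taken by the gene name in the array files: the peptides Nppa, Nppb and Nppc, their receptors Npr1, Npr2 and Npr3, the endothelins Edn1 and Edn3, and their receptors Ednra and Ednrb. Nppb and Ednrb were chosen by their measured ratios in these same arrays, which were large, so their values are given as a description with no test. The other 8 genes joined as members of the same systems. The iPS M13 samples were untreated rat cells, all under the 1 name M13, kept on irradiated mouse embryonic fibroblasts, and gave total RNA labelled with Cy3. They were hybridised against mix1, an untreated RNA whose name and growth notes describe a mixture of rat marrow cells with fibroblasts grown from the ear, labelled with Cy5. Each of the 3 arrays carried 1 iPS M13 sample and the same mix1 RNA, and no dye was swapped, so dye and RNA source cannot be told apart. Nothing in the labels ties the 3 samples to separate cultures, and the p-values rest on the spread among these 3 alone, which may be technical.

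Nppa and Nppb encode atrial and brain natriuretic peptide, hormones that the heart muscle releases when it is stretched, and Nppc encodes C-type natriuretic peptide, a local signal in bone and vessel walls. Npr1 and Npr2 are membrane guanylyl cyclases that make cyclic GMP when the peptides bind, while Npr3 takes the peptides up for breakdown. Endothelins are made by endothelial and other cells. They act through the G protein-coupled receptors Ednra, known for its part in smooth muscle contraction, and Ednrb, which is also needed in the neural crest cells that form pigment cells and gut neurons.

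The probes that show how the readings of these genes were made are 60 bases long. The first pair belongs to Nppb and was designed on an expressed sequence tag (EST), not on the transcript record. They are shown because their rn3 coordinates run on the minus strand, chr5:165073012-165073071 and chr5:165072992-165073051, while the probe designed on the Nppb transcript lies on the plus strand at chr5:165073752-165073811, 680 bases away from the nearer one. Capitals mark the 40 bases that the 2 EST probes share, so their readings are not independent.
Nppb EST probe 1: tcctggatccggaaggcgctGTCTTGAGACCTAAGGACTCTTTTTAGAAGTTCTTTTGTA
Nppb EST probe 2: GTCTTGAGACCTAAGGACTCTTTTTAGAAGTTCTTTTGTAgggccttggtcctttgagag
The probes of Ednrb (chr15:87909414-87909473, minus strand) and Npr3 (chr2:61211800-61211859, minus strand) follow, since they read the receptor with the largest difference and the clearance receptor.
Ednrb probe: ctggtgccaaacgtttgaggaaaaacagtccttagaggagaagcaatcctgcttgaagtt
Npr3 probe: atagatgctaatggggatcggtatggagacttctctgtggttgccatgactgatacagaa

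In short, Npr1, Npr2 and Npr3 had lower signals in iPS M13, set against mix1. Edn1 also read lower there, though its probe was not well above background on every array in iPS M13. The values of the genes that chose the set were high for Nppb and low for Ednrb in iPS M13. Of the 12 probes, 8 probes of 7 genes were well above background in the same RNA on all 3 arrays and entered the fit, and 4 did not: those of Nppa, Edn3 and Ednra and EST probe 2 of Nppb. A probe was called when limma gave a Benjamini-Hochberg adjusted p under 0.05 and the difference was at least 2-fold. By that rule the table of all probes held 2 probes of the members as higher (both of Nppb) and 6 as lower, beside 18.5% called higher and 25.1% called lower, 43.6% in either direction, among the 24149 probes tested on the whole array. Nothing is read from those counts, since the measured ratios chose Nppb and Ednrb. Also, Ednrb, Nppc, Edn1 and EST probe 1 passed the filter through 1 RNA alone, where a difference was built in or made likely. Npr1, Npr2 and Npr3 were measured in both RNAs on all 3 arrays, and Edn1 in iPS M13 on 2. In these RNA pools, fewer cells of a type and less RNA per cell cannot be told apart.

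**Figure D1:**
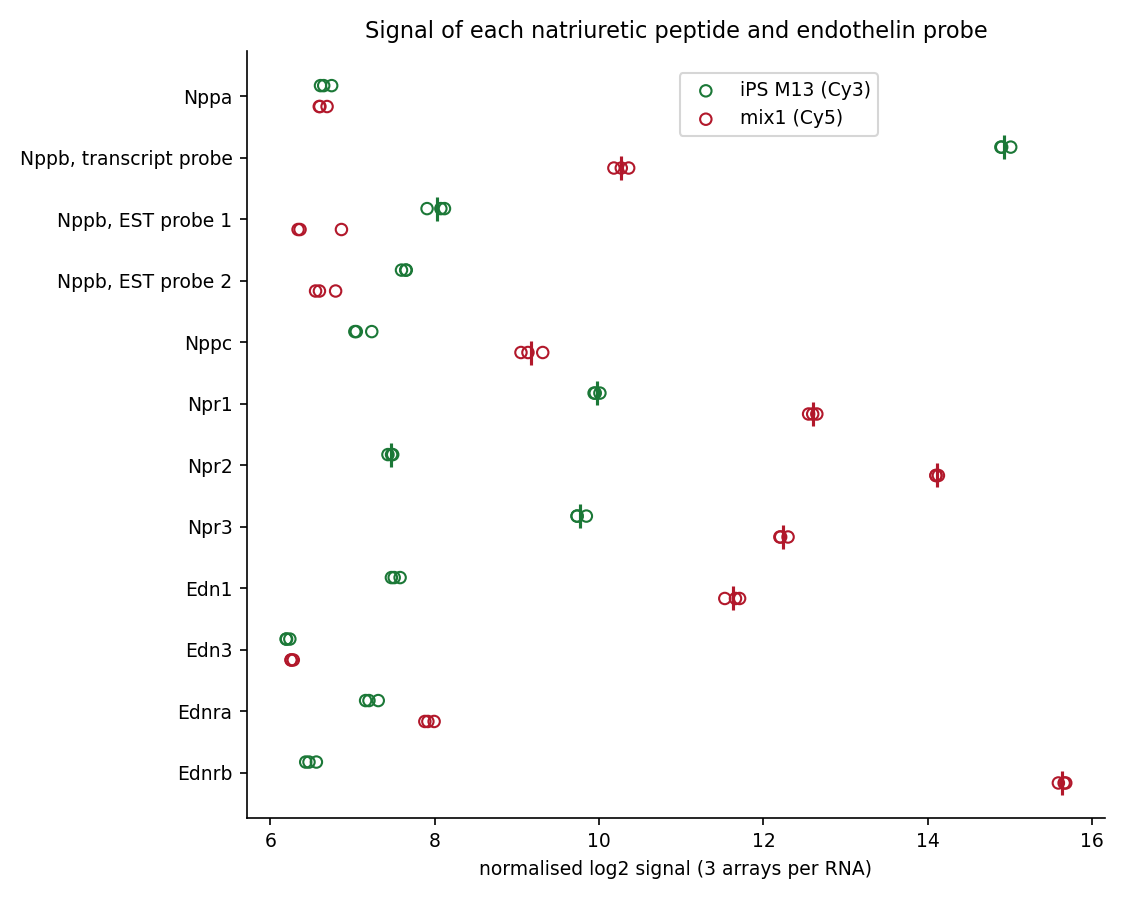
Normalised log2 signal (x axis) of each of the 12 probes (rows) on the 3 arrays, with iPS M13 in green above mix1 in red; a vertical tick marks the mean of an RNA that was well above background on all 3 arrays. Nppb stands to the right in iPS M13 at a mean of 14.93, Ednrb to the right in mix1 at 15.64, and both RNAs of Nppa and Edn3 lie near the left edge.

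Among the peptide genes, Nppb stood out in iPS M13. Its transcript probe read normalised log2 signals of 14.90, 15.01 and 14.89 in iPS M13 on replicates 1, 2 and 3, against 10.27, 10.36 and 10.18 in mix1. All 3 iPS M13 samples were above all 3 mix1 readings, which the choice of Nppb by its ratio made likely. The mix1 RNA itself was well above background on every array. The ratio of iPS M13 to mix1 on the log2 scale was 4.66 ± 0.05 (SD, n = 3), or 25.3-fold. It was the 25th highest of the 24149 ratios. The genes with the nearest ratios, among 8531 named genes measured in both RNAs on all 3 arrays, were Smpd3 (4.62), Resp18 (4.72) and Avil (4.80). That likeness rests on 1 mean over 3 arrays.

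The EST probes filed under Nppb gave smaller ratios, and whether they read Nppb mRNA, given their strand, was not tested. EST probe 1 read 7.91, 8.12 and 8.07 in iPS M13, against 6.34, 6.86 and 6.36 in mix1, where no array had it well above background. Its log2 ratio was 1.51 ± 0.24 (SD, n = 3), which is given as at least 1.89-fold higher, a bound under the 2-fold limit. EST probe 2 read 7.60, 7.65 and 7.65 in iPS M13, well above background on 2 of the 3 arrays, against 6.60, 6.79 and 6.55 in mix1, on none. Its log2 ratio of 0.99 ± 0.12 (SD, n = 3) was not tested. Every iPS M13 reading of both EST probes was above every mix1 reading of the same probe, as for the transcript probe, but the ratios were smaller. That separation is no support, since Nppb was chosen by its ratio and the share of all probes without overlap was not counted. In the authors' deposited table the ratios were 3.18 for EST probe 1 and 2.57 for EST probe 2, against 5.16 for the transcript probe.

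Nppa, the neighbouring gene of Nppb in the RefSeq table, was too dim to be measured above background in iPS M13 or mix1. Its probe lies 11012 bases from the Nppb transcript probe in rn3, at chr5:165084824-165084883 on the same strand, and was printed 10 times on each array. The mean brightness of its spots, before normalisation, was 103, 108 and 118 in iPS M13, against 82.1, 84.6 and 89.6 in mix1. The 95th percentile of 153 negative control spots was 124, 113 and 144 in the iPS M13 channel and 104, 98.5 and 108 in the mix1 channel. Of the Nppa spots used, 0 were well above background in iPS M13 and 0 in mix1 on every array. So no fold is given for Nppa, and a high reading was seen for 1 gene of this chromosomal pair only.

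The 250 bases before the gene starts of Nppb and Nppa are shown because these genes are neighbours and only Nppb was above background. They come from RefSeq (build GRCr8), at chr5:163699758-163700007 for Nppb and chr5:163711934-163712183 for Nppa, both on the plus strand. Capitals mark matches, on either strand, to the motifs AGATAA and, likewise for GATA factors, TGATAA, to CATTCC, bound by TEAD factors, and to the box TATAAA, where the general transcription machinery binds. The AP-1 motif TGANTCA was also searched and not found in either window. No matches overlap in these windows.
Nppb promoter: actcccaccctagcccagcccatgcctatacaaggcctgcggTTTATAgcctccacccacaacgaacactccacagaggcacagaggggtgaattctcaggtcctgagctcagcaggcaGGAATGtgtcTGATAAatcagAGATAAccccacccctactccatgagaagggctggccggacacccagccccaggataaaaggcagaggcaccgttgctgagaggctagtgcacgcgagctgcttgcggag
Nppa promoter: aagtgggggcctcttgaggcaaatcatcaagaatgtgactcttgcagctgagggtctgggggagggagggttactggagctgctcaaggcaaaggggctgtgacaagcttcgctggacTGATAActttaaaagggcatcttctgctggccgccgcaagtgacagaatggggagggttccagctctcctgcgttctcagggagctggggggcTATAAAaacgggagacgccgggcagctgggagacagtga
The Nppb window held AGATAA at 110 to 105 bases before the start, TGATAA at 121 to 116, CATTCC on the opposite strand at 131 to 126 and TATAAA on the opposite strand at 208 to 203. The Nppa window held TGATAA at 132 to 127 bases and TATAAA at 39 to 34. Among 33469 RefSeq promoters of this length, 10.3% held AGATAA, 7.97% TGATAA, 12.1% CATTCC and 12.9% TATAAA. A match is a run of letters and says nothing of whether a factor was bound. Of the member genes 8 of 10 had a promoter in the table.

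Nppc was above background in mix1 alone. Its probe read 7.23, 7.03 and 7.05 in iPS M13, against 9.31, 9.05 and 9.13 in mix1. iPS M13 was well above background on 0 arrays and mix1 on all 3, so the difference is given as at least 3.86-fold lower in iPS M13 (measured log2 ratio -2.06 ± 0.04, SD, n = 3), with no test, since its filter was passed through mix1. The 3 peptide genes thus showed 3 patterns, with Nppb bright in iPS M13, Nppc above background in mix1 alone and Nppa in neither.

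All 3 natriuretic peptide receptors were lower in iPS M13, and each was well above background in both RNAs on all 3 arrays. Npr2, the cyclase receptor that prefers C-type peptide, read 7.49, 7.47 and 7.43 in iPS M13, against 14.10, 14.10 and 14.13 in mix1. Its log2 ratio was -6.64 ± 0.05 (SD, n = 3; limma adjusted p = 5.93e-07), the 188th lowest of all probes tested. Npr1, the cyclase receptor for the atrial and brain peptides, read 10.01, 9.94 and 9.95 in iPS M13, against 12.65, 12.55 and 12.60 in mix1, a log2 ratio of -2.63 ± 0.02 (SD, n = 3; limma adjusted p = 7.71e-07). Across the repeat spots of Npr1 that were used, with outlier spots left out, the ratio ran from -2.71 to -2.57 on the 3 arrays together. Npr3 read 9.73, 9.85 and 9.73 in iPS M13, against 12.21, 12.30 and 12.20 in mix1, a log2 ratio of -2.47 ± 0.01 (SD, n = 3; limma adjusted p = 7.51e-07). No iPS M13 reading of a receptor overlapped with a mix1 reading of the same probe. The share of all probes without overlap was not counted, so nothing about the receptors is read from this. The ratios of Npr1 and Npr3 lay near each other, while that of Npr2 was lower than both on every array.

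**Figure D2:**
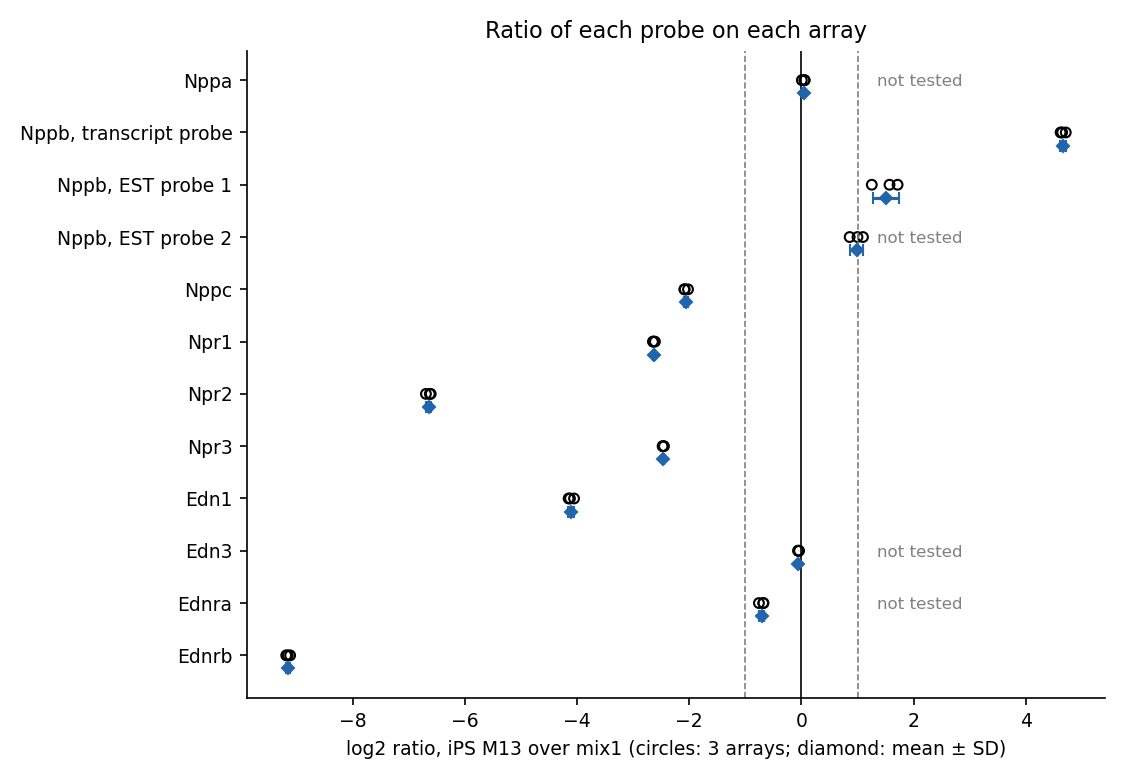
Log2 ratio of iPS M13 over mix1 (x axis) for each probe (rows), with a circle for each of the 3 arrays and a diamond with bars for the mean ± SD; dashed lines mark a 2-fold difference and 4 probes are marked as not tested. The circles of a probe lie close together, with the widest SD, 0.24, at EST probe 1 of Nppb.

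Of the endothelins, Edn1 was lower in iPS M13 and Edn3 was dim in both RNAs. Edn1, the main vasoconstrictor of the family, read 7.58, 7.47 and 7.51 in iPS M13, against 11.71, 11.53 and 11.66 in mix1. Its log2 ratio was -4.11 ± 0.05 (SD, n = 3), or 17.3-fold lower. No test is given, since the probe passed the filter through mix1 alone. Its probe was printed 10 times, and in iPS M13 the spots well above background were 9 of 9, 10 of 10 and 5 of 10 on replicates 1, 2 and 3. The spot ratios ran from -4.28 to -3.99, so all repeat spots used had the same sign. Edn3, an endothelin known as the ligand of Ednrb in the neural crest, read 6.24, 6.19 and 6.20 in iPS M13, against 6.28, 6.25 and 6.25 in mix1, with 0 of 3 arrays above background on both sides, so no fold is given. Its probe covers 945 bases of rn3 on chromosome 3, more than its 60 bases, so its sequence is not contiguous in the genome.

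Ednrb had the lowest ratio of the members. It read 6.56, 6.43 and 6.47 in iPS M13, against 15.68, 15.59 and 15.66 in mix1. In iPS M13 none of the spots used was well above background, and in mix1 all of them were. On replicate 2 a pair of spots left out as outliers, at 168.6 and 346.3 in brightness, were marked above background in iPS M13. The raw brightness averaged 128, 129 and 131 in iPS M13, against 37580, 42550 and 38080 in mix1. The difference is given as at least 385-fold lower in iPS M13, by the bound defined under the processing, from a measured log2 ratio of -9.15 ± 0.04 (SD, n = 3).

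Ednra gave readings that depended on the probe. The probe named Ednra in the files read 7.31, 7.20 and 7.16 in iPS M13, against 7.99, 7.88 and 7.92 in mix1. Most of its repeat spots were well above background on 1 of 3 arrays in iPS M13 and on 2 of 3 in mix1, so it was not tested, and its log2 ratio was -0.71 ± 0.05 (SD, n = 3). On replicates 1, 2 and 3 its spots above background were 4 of 10, 6 of 7 and 0 of 9 in iPS M13, and 10 of 10, 7 of 7 and 4 of 9 in mix1. A further probe carries another name in the files, RGD1559432_predicted, which the RefSeq table lists as a synonym of Ednra. That probe, chosen after its values were seen, lies 2625 bases from it in rn3, at chr19:32112492-32112551. It read 7.58, 7.54 and 7.57 in iPS M13, against 12.30, 12.28 and 12.37 in mix1. Its log2 ratio was -4.75 ± 0.04 (SD, n = 3), with no test given, since it was chosen with its values known. The iPS M13 readings of both probes were lower than the mix1 readings on all 3 arrays, but in mix1 the files' own Ednra probe was above background on 2 of 3 arrays and the other on all 3. The Ednra probe of the files covers 2001 bases of rn3 (chr19:32107866-32109866), more than its length.

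**Figure D3:**
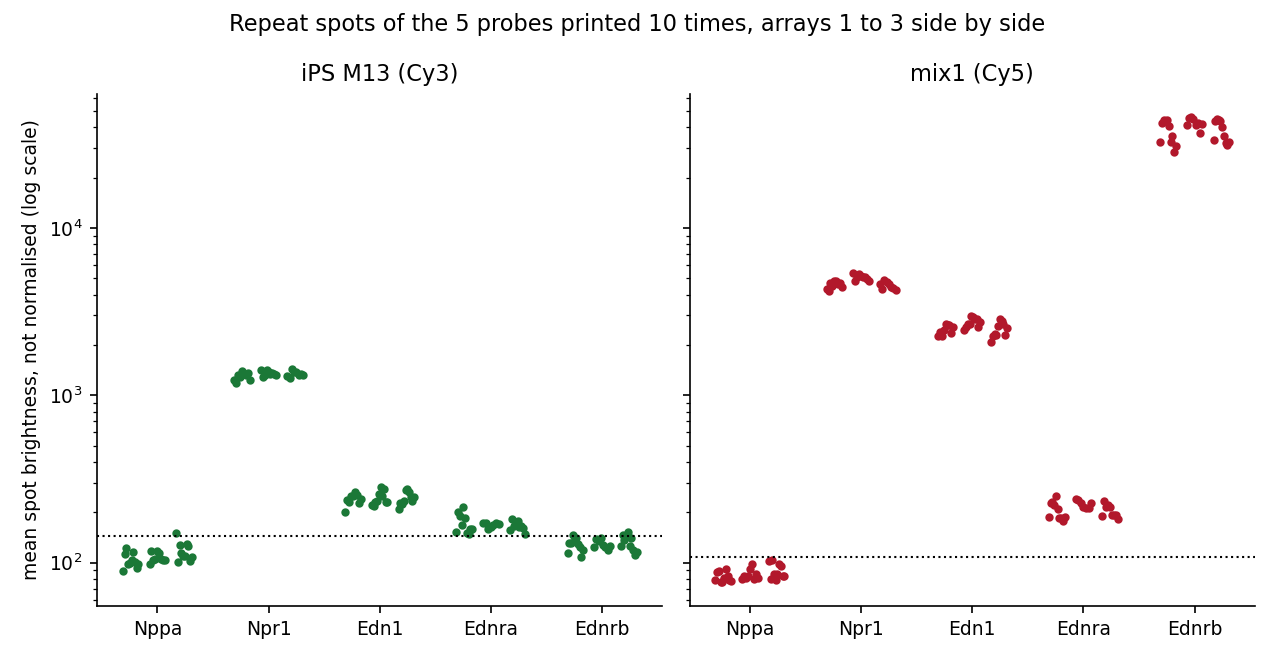
Brightness of single spots before normalisation (y axis, log scale) for the 5 probes printed 10 times, in iPS M13 on the left and mix1 on the right, with the 3 arrays side by side within a gene and outlier spots left out; the dotted line is the highest 95th percentile of the negative controls over the arrays. Nppa lies at or under the line in nearly all spots of both RNAs, and Ednrb lies near it in iPS M13 and at 28590 to 46200 in mix1.

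The whole array gives a scale for these ratios. The 5th and 95th percentiles of the log2 ratios of all tested probes were -3.62 and 1.90, and the 1st and 99th were -6.30 and 3.17. Npr2 lay under the 1st percentile, as did Ednrb, and the transcript probe of Nppb lay above the 99th, both of which were chosen for it. Edn1 lay between the 1st and the 5th percentile, and Nppc, Npr1, Npr3 and EST probe 1 lay within the 5th to the 95th. The SD between arrays had a median of 0.041 over the 12 probes and 0.034 over all tested probes.

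**Figure D4:**
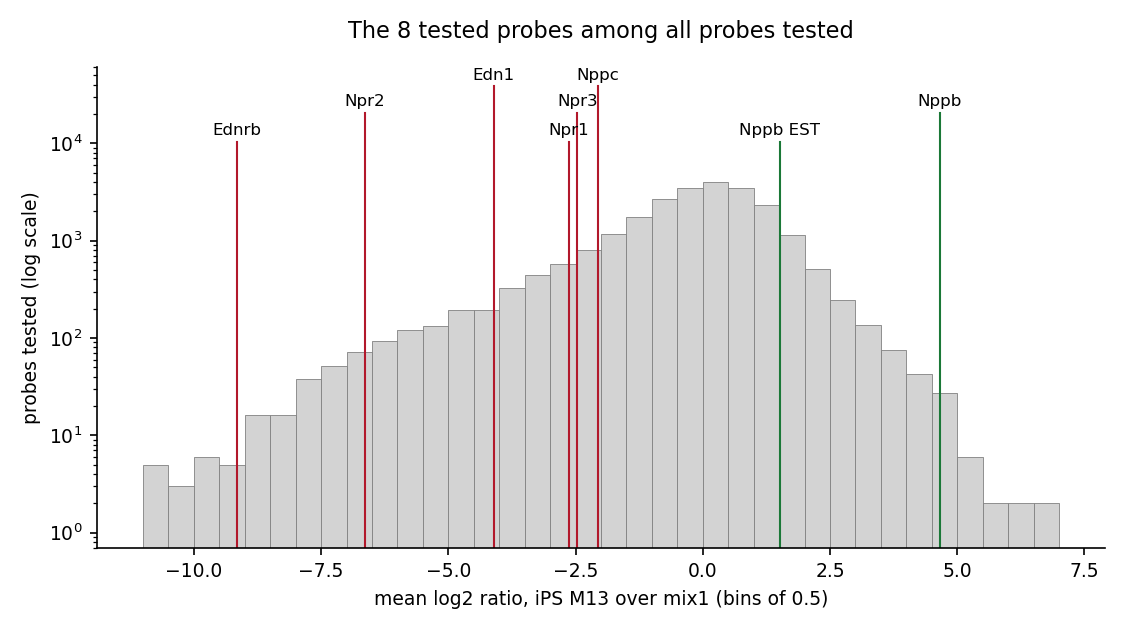
Number of tested probes (y axis, log scale) by mean ratio of iPS M13 to mix1 on the log2 scale (x axis, bins of 0.5), with the 8 tested probes drawn as lines, green for higher and red for lower in iPS M13. Ednrb at -9.15 and Nppb at 4.66 fall in the thin ends of the distribution.

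Genes that process, break down or relay these peptides moved in both directions. Of 20339 genes tested with 1 probe each, 18.8% were called higher and 25.4% lower, with a median log2 ratio of -0.02. In each list of such related genes, some called genes passed the filter through 1 RNA alone. Of 13 processing and breakdown genes, 8 were tested, 1 was called higher and 5 lower, with a median of -2.50. Neprilysin (Mme), the protease that cuts natriuretic peptides and endothelins, had a log2 ratio of -6.20 ± 0.06 (SD, n = 3). The proprotein convertase Pcsk5 was at -4.92 ± 0.05, with its other probe not tested, and the endothelin-converting enzyme Ece1 at -1.97 ± 0.02 from its brightest probe, while its other probes were not called. Pcsk6, which in humans activates the atrial peptide convertase corin, was called higher at 1.16 ± 0.03, and Corin itself was dim in both RNAs. The list's median was -0.54 without the filter on dim probes and -0.87 with both channels above background.

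In the cyclic GMP pathway, which lies downstream of Npr1 and Npr2, 11 of 21 genes were tested, 3 were called higher and 4 lower, with a median of 0.06. The cyclic GMP-dependent kinase Prkg1 was at -2.13 ± 0.05 (SD, n = 3) from its brightest probe, and its other probes were not called or not tested. Pde6d was at -1.76 ± 0.02. The 3 higher genes, named after their values were seen, were the soluble guanylyl cyclase subunit Gucy1a1 (2.48 ± 0.08, and not called from its other probe), the kinase Prkg2 (at least 3.16-fold) and the phosphodiesterase Pde3b (1.77 ± 0.16). In mix1 these 3 were well above background on 2, 0 and 2 of the 3 arrays. The cyclic GMP phosphodiesterase Pde5a was at 0.27 ± 0.05 and was not called.

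Among 26 genes of endothelin receptor signalling 24 were tested, 1 was called higher and 10 lower, with a median of -0.67. The inhibitory G protein subunits differed in sign, with Gnai1 at 1.85 ± 0.07 and Gnai2 at -2.42 ± 0.04 (SD, n = 3). Protein kinase C delta (Prkcd) was at -2.38 ± 0.01, and the RhoA activator Arhgef1 at -1.11 ± 0.01, and not called from its other probe. The subunits that couple both endothelin receptors to phospholipase C, Gnaq (-0.40 ± 0.06) and Gna11 (-0.06 ± 0.02), were not called. Of 24 other vasoactive peptide genes 15 were tested, 0 were called higher and 11 lower, with a median of -1.77. Of the lower ones, Avp, Avpr1a, Bdkrb1, Vipr2, Uts2r and Apln passed the filter through mix1 alone, where a lower call was made likely. The vasopressin receptor Avpr1a was at least 83-fold lower. Adrenomedullin (Adm) was at -5.50 ± 0.05 and its co-receptor Ramp3 at -5.08 ± 0.09, while neuropeptide Y (Npy) was at -2.14 ± 0.01 and its receptor Npy1r at -1.19 ± 0.04. With the processed signals the list's median was -2.51, and without the filter on dim probes it was -1.01.

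**Figure D5:**
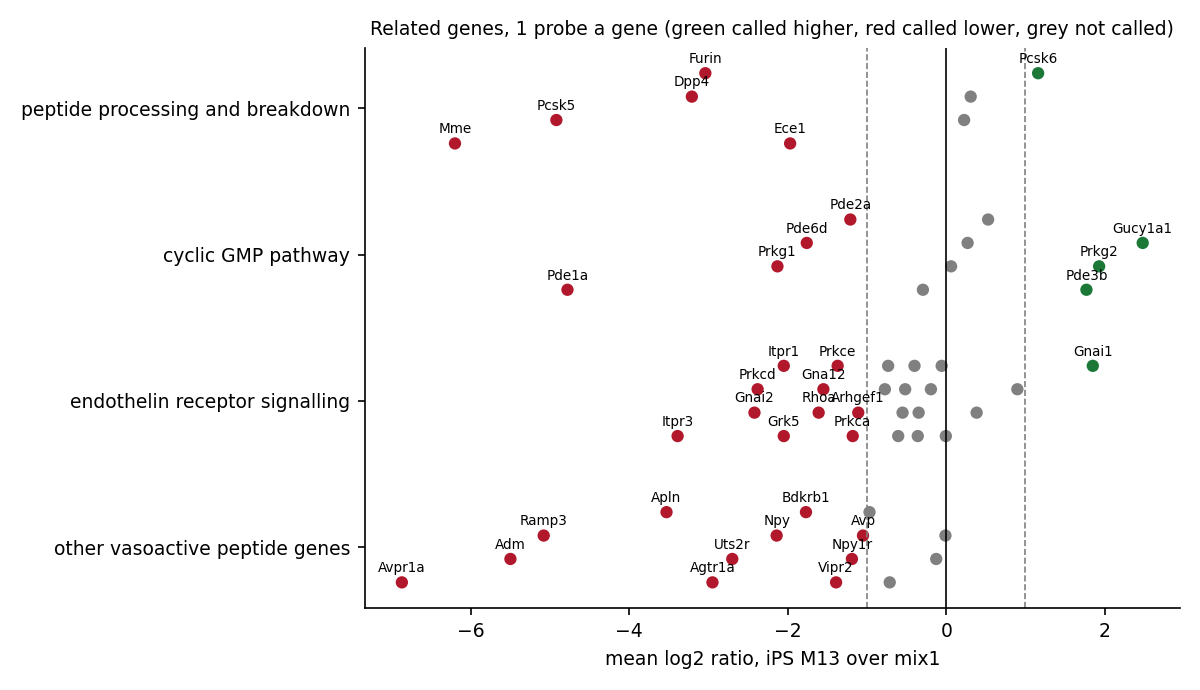
Mean ratio of iPS M13 to mix1, log2 scale (x axis), of the tested genes in 4 related lists (rows), 1 probe a gene, in green where called higher, red where called lower and grey where not called; the spread within a row is only for legibility and dashed lines mark a 2-fold difference. The other vasoactive peptide genes hold 0 green points and 11 red ones, some of which passed the filter through mix1 alone.

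Markers of cell types known for these peptides were read in the same arrays. Of 19 heart muscle markers 16 had a probe, and in iPS M13 10 of them were not well above background on any array, among them Nkx2-5, Gata4, Tbx5, Tbx20, Myh6 and Myh7, which were dim in mix1 too. Their mean log2 signal was 7.41 to 7.45 over the arrays in iPS M13 and 7.61 to 7.66 in mix1, and their summed brightness 11936 to 13158 and 9752 to 11365. Actc1, at a mean log2 signal of 12.93 and 13.36, was the brightest of them. Summed brightness, here and below, is before normalisation, and the 2 dyes differ in background, so small differences between the RNAs are not read from it. In iPS M13 4 markers passed the background limit on each array, namely the heart transcription factors Hand1 (-0.18 ± 0.01) and Hand2 (0.56 ± 0.05), Tnnt2 and Actc1, and the part of such cells in the Nppb signal was not tested. Of 5 markers tested, Tnnt2 was the 1 called, at -1.27 ± 0.04 (SD, n = 3), and Actc1 was at -0.42 from its brightest probe, not called, and called higher from another. Of 12 pluripotency markers 8 had a probe, and 6 of 7 tested were called higher and 0 lower. Of those called higher, Pou5f1 and Epcam passed the filter through iPS M13 alone. Of 12 trophoblast and endoderm markers 11 had a probe and 5 were tested, with 3 called higher and 2 lower. Over all genes tested, 18.8% were called higher and 25.4% lower. Afp and Lama1 passed the filter through iPS M13 alone, and Gata6 and Plac1 through mix1 alone, where calls in those directions were made likely. Afp was at 3.83 ± 0.18 and Ascl2 at 1.38 ± 0.25 (SD, n = 3), and Lama1 was at least 3.44-fold higher, while Gata6 was at least 5.27-fold lower and Plac1 was at -1.01 ± 0.58. The summed brightness of that list was 9741 to 10179 in iPS M13 and 2500 to 2616 in mix1, and its part in the Nppb signal was not tested.

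Beside the lower Edn1 and Ednrb stand the markers of the adult cells. Of 13 endothelial markers, all with a probe, Pecam1 and Cdh5 were dim in both RNAs on every array, and the summed brightness of the list was 3063 to 3386 in iPS M13 and 6183 to 7512 in mix1. Of the 5 tested, 1 was called higher and 2 lower. Egfl7, an endothelial secreted factor, was at -3.19 ± 0.05 and the transcription factor Erg at -1.89 ± 0.08 (SD, n = 3), both called lower. Tek was at least 3.46-fold higher, and Kdr (-0.86 ± 0.10) and Esam (-0.45 ± 0.05) were not called. Erg passed the filter through mix1 alone, where a lower call was made likely, and Tek through iPS M13 alone. Of 14 neural crest and pigment cell markers, 3 were above background on all arrays in iPS M13 and 5 in mix1, with a summed brightness of 2838 to 2933 and 2879 to 3174. Of the 5 tested, 2 were called lower and 0 higher: the pigment cell genes Pmel, at -1.47 ± 0.29 (SD, n = 3), and Mlana, at least 2.23-fold lower. Sox10 was at -0.67 ± 0.04 and was not called, and Tyr and Dct were not above background in either RNA. With 1 probe a gene, all 8 smooth muscle markers with a probe were called lower, beside 25.4% of all genes tested. So were all 12 fibroblast and all 10 tested macrophage markers. Of their further probes, that of Myh11 was not called, Mylk, Csf1r and Ptprc each had a probe not tested, and the rest were called lower. In iPS M13, 3, 9 and 6 markers of these lists were well above background on all arrays. The other called ones passed the filter through mix1 alone, where a lower call was made likely. Of those, Lmod1 (1.87), Myocd (1.59) and Ptprc (1.82) had bounds under 2-fold. Summed brightness was 4910 to 5451 in iPS M13 and 123870 to 132510 in mix1 for the smooth muscle markers. It was 22771 to 25184 and 1742700 to 1912800 for the fibroblast markers, and 5303 to 5349 and 201370 to 229000 for the macrophage markers. These lists move with Ednrb, Edn1 and the receptors, and their part in those differences was not tested. RNA of the mouse feeders was not measured apart from that of iPS M13, and its part in the iPS M13 signals was not tested.

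Each of the 8 tested probes had 1 sign on all 3 arrays and under all 11 other settings that gave it a value, while Nppa and Edn3, dim in both RNAs, changed sign with the setting. Median centring put the median of the 24149 tested probes at 0.58, against -0.02 here, so ratios are read relative to that shift. Since mix1 was a single RNA, its own variation does not enter the test.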

How the data were processed

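Spot intensities of 3 two-colour arrays were deposited by the authors as Agilent Feature Extraction 9.5.3.1 gave them, per the file headers, and probe positions are on rn3. Processed intensities and log10 ratios (Cy5 over Cy3) in the same deposited files had been detrended and scaled between dyes by Feature Extraction, per the file headers. The value table deposited by the authors holds log2 ratios of unstated direction and centring. Its columns had slopes of -3.32 against the log10 ratios, so they were taken as Cy3 over Cy5, and column medians of -0.0413, -0.0282 and -0.0286. All arrays lay on 1 slide with 1 scan time. Line breaks missing from the deposited files, 3 in all, were restored.

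Mean signals were corrected by normexp (offset 50) and loess-normalized within arrays in limma 3.58.1 (R 4.3.3), with control spots at weight 0 and outlier spots left out (2, 7 and 3 of the 57 member spots on replicates 1, 2 and 3). Spots of a probe were averaged, and a probe counted as above background on an array when over 50% of its spots were. Signals per RNA were set on 1 scale by Aquantile. The mean log2 ratio was tested against 0 with lmFit and eBayes (1.6 prior degrees of freedom) over 24149 probes, and the code was tested on simulated data. The smallest p of an exact sign-flip test over 3 arrays is 0.25. For a probe dim in 1 RNA on every array, the bound set the brighter RNA's mean against, per array, the higher of the dim signal and the lowest signal above background (6.96, 6.80 and 7.39 for iPS M13 and 7.35, 4.72 and 7.14 for mix1). That lowest signal is not a detection limit. Edn1 read 7.51 in iPS M13 on replicate 3, over 7.39, and did not count as above background there. So "at least" holds by this definition only. Each gene of a list was read from its brightest tested probe. Of 41012 probes 10735 were named by accession, 5577 by symbol and 3730 by synonym in RefSeq, and 20970 kept the file's name. Sequences, names and figures were made in Python 3.11.15 with matplotlib 3.10.9, numpy 2.4.6 and pandas 2.3.3.

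The members and lists were chosen with earlier results of these data known. Named genes were all members, the 2 highest and 2 lowest called genes of each related list measured in both RNAs on all arrays, and the 3 genes nearest in ratio to Nppb (not to Ednrb, whose ratio is a bound). Others are named as list context. The number of arrays limits the precision.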

Additional observations from a re-analysis of the deposited data

How the results depend on the processing

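Under 11 other settings the 8 tested probes kept their direction, and each stayed on its side of the threshold wherever it was tested. The log2 ratio ranged from 4.44 to 5.51 for the Nppb transcript probe, 1.41 to 3.18 for EST probe 1, -3.09 to -1.74 for Nppc, -2.69 to -1.79 for Npr1, -7.01 to -5.82 for Npr2, -2.53 to -1.63 for Npr3, -4.50 to -3.45 for Edn1 and -10.6 to -8.32 for Ednrb. With both channels above background on all arrays, 1 probe of the members was called higher and 3 lower, since fewer probes were tested. The probes not tested had no settled sign where both RNAs were dim: Nppa ran from -0.19 to 0.49 and Edn3 from -0.43 to 0.32, while Ednra ran from -1.17 to -0.54 and EST probe 2 from 0.93 to 2.57. Over the whole array 4467 probes were called higher and 6051 lower (42.5% of calls higher). The count called higher was 7472 with the processed signals and with the authors' value table (56.9% of calls higher), 8786 with median centring (67.8%) and 8311 without within-array normalization (65.7%), and the cause was not tested. Without 1 replicate it ranged from 4378 to 4575. The slope of the log2 ratio per 10% of probe GC content was -0.450, -0.429 and -0.453 on the 3 arrays. The slide could not be a block, since all arrays lay on 1 slide. No paired analysis was possible because the 3 samples form 1 group, read against 1 control RNA on the same array.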

Other observations

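Edn2, the third endothelin, was not among the members and was looked up after their values were seen. Its probe read 7.98, 7.96 and 7.97 in iPS M13, against 6.754, 7.003 and 6.642 in mix1, where it was below that limit on every array. The difference is given as at least 1.74-fold higher in iPS M13 (measured log2 ratio 1.17 ± 0.19, SD, n = 3), with no test, since it passed the filter through iPS M13 alone. So Edn2 read higher in iPS M13 on 3 of 3 arrays, Edn1 lower on 3 of 3, and Edn3 was dim in both RNAs.

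The genes next to Nppb and Ednrb in the RefSeq order were also looked up after the members' values were seen. Near Nppb, Plod1, a collagen lysyl hydroxylase, was at -5.33 ± 0.06 (SD, n = 3), the chloride transporter gene Clcn6 at -1.11 ± 0.06, and 2510039O18Rikl at -1.02 ± 0.02, all called lower. Mfn2 (-0.68 ± 0.02) was not called, and Nppa was not tested. Beside Ednrb, Slain1 (3.97 ± 0.69) and Obi1 (1.19 ± 0.07) were called higher in iPS M13, Mycbp2 (0.29 ± 0.02) and Rbm26 (0.71 ± 0.01) were not called, and Scel and Pou4f1 were not tested. So the high reading of Nppb and the low reading of Ednrb were not shared by the tested neighbours named here.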
